A study of Mus musculus with 9 samples.

Results

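The guanylate-binding proteins (GBP) and the immunity-related GTPases (IRG) are the main families of interferon-inducible GTPases of the mouse. The members described here were 5 GBP genes, *Gbp2*, *Gbp3*, *Gbp5*, *Gbp7* and *Gbp9*, and 5 IRG genes, *Iigp1*, *Irgm1*, *Irgm2*, *Igtp* and *Tgtp1*, chosen by name. All 10 of the 10 had a row among the 13708 genes of the table, and all passed the filter on low values.

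The samples were macrophages sorted at E15.5 from fetal liver as CD45+, F4/80hi and CD11blow cells, and their RNA was measured by bulk RNA-seq. There were 5 samples of genotype *Mrc1Cre Xpr1fl/fl* and 4 of genotype *Xpr1fl/fl*, which served as controls. *Xpr1* encodes an exporter of phosphate, and both genotypes carried *loxP* sites around its exon 2. The Cre recombinase was expressed from the *Mrc1* locus, as an insertion that also carries eYFP, so that it acts in CD206+ macrophages and in sinusoidal endothelial cells, and only the *Mrc1Cre Xpr1fl/fl* samples carried the insertion. No label says whether the samples of a genotype came from separate embryos or litters, so p-values measure the spread between these samples, which may be partly technical.

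GBP and IRG proteins are made by macrophages and many other cells after interferon reaches them, more strongly after IFN-γ than after type I IFN for most members. GBP proteins gather on pathogen-containing vacuoles and on bacterial surfaces and promote inflammasome activation. IRG proteins fall into effectors, which coat and break the vacuole membrane, and regulators, which stay on the membranes of the cell itself and hold the effectors in their inactive form. IFN-γ acts through DNA elements named GAS, and type I IFN acts mainly through elements named ISRE, which are bound by a complex that holds IRF9.

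The 2 IRG classes differ in the coding sequence of the first nucleotide-binding motif, which is shown because the results are ordered by it. The codon that separates them is in capitals: it is ATG (methionine) in the regulators and a lysine codon in the effectors. The stretches of 27 bases are on GRCm39, in exon 3 of *Igtp* (chr11:58097101-58097127, plus strand), exon 2 of *Irgm2* (chr11:58110521-58110547, plus strand), exon 2 of *Irgm1* (chr11:48757585-48757611, minus strand) and exon 2 of *Tgtp1* (chr11:48878491-48878517, minus strand).
Igtp: ggggactctggcaatggcATGtcatct
Irgm2: ggggactctggcaatggcATGtcatct
Irgm1: ggggactctggcaatggcATGtcatct
Tgtp1: ggggaaacaggcgcagggAAGtccact
The regulators *Igtp*, *Irgm1* and *Irgm2* were identical over these bases. *Iigp1* also had the lysine form, as did all 5 GBP members. Among the GBP members, *Gbp2* and *Gbp5* alone had a cysteine codon at the fourth place from the end of the coding sequence, the place used for prenylation, which anchors the protein in membranes. The last 4 codons, with that codon in capitals, were as follows.
Gbp2: TGCactatactc
Gbp5: TGTgttataagc
*Gbp3*, *Gbp7* and *Gbp9* had another codon there.

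The promoter sequences of the members are shown as a description. RefSeq promoter windows (build GRCm38.p6, 250 bases before to 50 bases after the start, found again by exact match in GRCm39) were given for 8 of the 10 members, and *Gbp9* and *Iigp1* are only named. They were searched on both strands for the ISRE and IRF core GAAANNGAA and for the GAS core TTCNNNGAA, 2 patterns that overlapped in none of these windows. Each of the 8 members had an ISRE core in a window, against 8.56% of all 32851 windows, although *Gbp3* had a second window without it. A GAS core was in the windows of *Gbp5*, *Gbp7*, *Igtp*, *Irgm2* and *Tgtp1*, against 8.3% of all windows, and 1.07% of all windows held both cores. In *Igtp*, *Irgm2* and *Tgtp1* the GAS core began 11 bases before the ISRE core. Matches are in capitals in the 30 bases around them, which lie at chr11:58090332-58090361 (*Igtp*, plus strand), chr11:58105723-58105752 (*Irgm2*, plus strand), chr11:48883137-48883166 (*Tgtp1*, minus strand), chr11:48762256-48762285 (*Irgm1*, minus strand) and chr3:142326355-142326384 (*Gbp2*, plus strand) of GRCm39.
Igtp: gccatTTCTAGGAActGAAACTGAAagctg
Irgm2: gccatTTCCAGGAActGAAACTGAAagctg
Tgtp1: gccatTTCCAGGAAtcGAAACTGAAaccta
Irgm1: tgtttcaaGAAATAGAAACCGAAactgatt
Gbp2: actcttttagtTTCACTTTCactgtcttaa
In *Gbp2* the core is read on the other strand, and in *Irgm1* a pair of cores overlap. The release of GENCODE used here places exons of the same genes over the *Igtp*, *Tgtp1*, *Irgm1* and *Gbp2* stretches, since it starts some transcripts earlier than RefSeq. Exons of the gene models *Gm12185* and *Gm74350* also lie over the *Tgtp1* and *Irgm1* stretches, in that order. Of the GBP and IRG genes outside the members, *Ifi47*, *9930111J21Rik2*, *Gm5431* and *Irgq* had neither core in their windows. Their log2 fold changes between the genotypes were 1.00, 0.70, 0.35 and 0.17. *Tgtp2*, *9930111J21Rik1*, *Gm12250* and *Gbp2b* had an ISRE core, with 2.79, 1.19, 0.82 and 0.44. A link between a core and the rise was not tested. A match is a description of letters, and binding of a factor was not measured.

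Measurements on the sort itself come first, because they stand beside every value below. *Adgre1*, which encodes F4/80, was at 46581.0 ± 1402.2 normalized counts (SD, n = 5) in *Mrc1Cre Xpr1fl/fl* samples and 46008.1 ± 4749.5 (n = 4) in controls, and the macrophage growth factor receptor gene *Csf1r* was at 84995.4 ± 6384.8 and 77102.5 ± 5258.6, and neither passed the threshold. The other genes of the sorting gate were higher in *Mrc1Cre Xpr1fl/fl* samples. *Ptprc*, which encodes CD45, was at 15402.1 ± 1793.8 against 8497.0 ± 530.3 (log2 fold change 0.85, limma adjusted p = 4.04e-05), and *Itgam*, which encodes CD11b, at 2994.2 ± 336.4 against 2244.6 ± 338.1 (0.42, limma adjusted p = 0.0071). The groups overlapped for *Itgam*. Of 14 macrophage markers, 3 were higher and 5 lower past the threshold, where 21.5% of all genes were higher and 21.6% lower. Of the genes of resident liver macrophages named here, *Spic* was higher, with overlap between the groups, and *Vsig4* and *Clec4f* were lower. *Spic*, a factor of iron-recycling macrophages, was at 10914.6 ± 1034.4 against 9204.5 ± 746.5 (0.24, limma adjusted p = 0.0226), whereas *Vsig4* was at 13.3 ± 4.6 against 485.5 ± 231.8 and *Clec4f* at 1857.4 ± 727.8 against 7408.9 ± 1989.8. *Xpr1* was at 1162.1 ± 84.9 against 1981.6 ± 204.7 (log2 fold change −0.77, limma adjusted p = 4.13e-05), and *Mrc1*, whose locus carries the Cre insertion, was at 7574.1 ± 1265.6 against 24693.3 ± 2674.1.

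Markers of other cells moved with the genotype. All 9 erythroid markers tested were lower, beside 21.6% of all genes, in *Mrc1Cre Xpr1fl/fl* samples, with *Hba-a1* the most abundant and *Hbb-bs* the one that fell most (−1.89). Their summed normalized counts were 103067, 80799, 123911, 115026 and 235024 in *Mrc1Cre Xpr1fl/fl* samples 1 to 5 and 411728, 307974, 489183 and 481819 in controls, so the groups did not overlap and sample 5 lay nearest to the controls. All 8 hepatocyte markers were lower, from −0.67 for *Trf*, the most abundant, to −1.23 for *Apoa1*, with sums of 34667 to 44747 against 58297 to 100067. All 6 lymphoid markers with a row were lower, with *Nkg7* falling most (−1.76) and *Cd79a* the most abundant, at summed levels of 92 to 146 against 263 to 575, and *Cd3e*, *Cd3g*, *Ncr1* and *Klrb1c* had no row to analyse here. Of the granulocyte markers 3 of 8 were lower, and *Elane* fell by 2.22 on the log2 scale, with *S100a9* the most abundant and overlapping sums (4978 to 18148 against 8771 to 54028). Of 7 dendritic cell markers 2 were higher, *Itgax* (1.77) and *Bst2* (0.34, the most abundant), and 3 lower, *Clec9a* most (−2.56), with sums of 5488 to 6293 against 4270 to 5220. Of 8 monocyte markers 1 was higher, *Plac8*, the most abundant, and 3 lower, *Ly6c2* most (−1.43), with sums of 7034 to 9716 against 5307 to 7326. The groups overlapped for *Ly6c2*. Lower were 6 of 8 endothelial markers (6223 to 8341 against 10145 to 13920) and 2 of 5 megakaryocyte markers (722 to 1037 against 2146 to 2578). *Stab2* was the most abundant endothelial marker (−0.78) and *Lyve1* fell most among those that passed (−1.46), while *Cldn5* (−1.50) and *Kdr* (0.43), the extremes of that list, did not pass. *Pf4* was the most abundant megakaryocyte marker and fell by 1.76. The part of these shifts in the results below was not tested, and in bulk RNA fewer cells of a type and less RNA per cell cannot be told apart. The column names also carry 3 dates of unstated meaning. Sample 5 of the *Mrc1Cre Xpr1fl/fl* group shares the earliest date with controls 1 to 3, control 4 has the middle date, and the other 4 *Mrc1Cre Xpr1fl/fl* samples have the latest date. A limma fit that adjusts for the date therefore rests on sample 5 against 3 controls, and its values are called date-adjusted. Date-adjusted list medians (over all samples in brackets) were −0.80 (−1.79) for erythroid, −0.51 (−1.10) for hepatocyte, −1.86 (−1.44) for lymphoid and −0.76 (−1.42) for granulocyte markers. They were −0.97 (−1.05) for dendritic, −0.59 (−0.17) for monocyte, −0.85 (−1.30) for endothelial and −0.26 (−1.43) for megakaryocyte markers. After this adjustment the markers still lower past the threshold were 2 of 9 erythroid, 2 of 8 hepatocyte, 3 of 6 lymphoid, 3 of 8 granulocyte, 2 of 7 dendritic, 0 of 8 monocyte, 1 of 8 endothelial and 1 of 5 megakaryocyte markers, beside 4.54% of all genes. Neither *Hbb-bs* (−0.74, limma adjusted p = 0.165) nor *Clec9a* (−1.24, 0.126) was among them, and *Itgam* (0.31, 0.298), *Plac8* (0.65, 0.0749) and *Bst2* (0.28, 0.278) were no longer higher past the threshold, whereas *Ptprc* (0.56, 0.0108), *Spic* (0.42, 0.0464) and *Itgax* (1.52, 0.00484) were.

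All 10 members were higher in *Mrc1Cre Xpr1fl/fl* macrophages than in controls, with log2 fold changes from 0.28 (*Irgm2*) to 1.91 (*Tgtp1*) and a median of 0.72. All 10 passed an adjusted p of 0.05 in limma with Benjamini-Hochberg adjustment over the 13594 genes tested. In the same fit 21.5% of all genes tested were called higher and 21.6% lower, so that many genes moved in these samples, and the median log2 fold change of all genes was 0.005. Of all genes called, 49.9% were higher, and this share fell to 35% when the samples were scaled to their 75th percentile. Under that scaling 14.7% of all genes were called higher and 27.3% lower, and 9 of the 10 members still passed while *Irgm2* did not. For each of the 10 members, every *Mrc1Cre Xpr1fl/fl* sample lay above every control, as was the case for 16.6% of all genes. In the date-adjusted fit, 5 members passed (*Gbp2*, *Gbp5*, *Iigp1*, *Irgm1* and *Igtp*), where 4.24% of all genes were called higher, and all 10 log2 fold changes were above 0. Sample 5 lay above each of its 3 same-date controls for all 10 members, against 34.9% of all genes. For the members this already follows from the lack of overlap between the groups, so it is no separate check on the date.

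**Figure D1:**
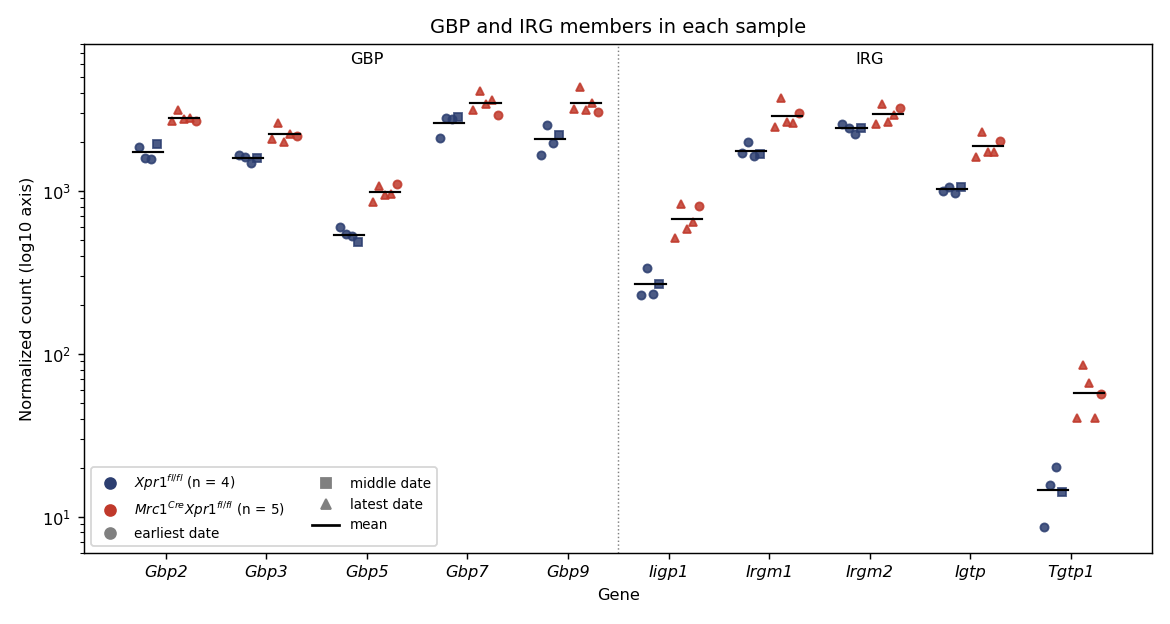
Normalized counts of the 10 members (log10 axis) in each of the 4 *Xpr1fl/fl* samples (blue) and the 5 *Mrc1Cre Xpr1fl/fl* samples (red); marker shapes give the date in the column name and bars the mean. No red point lies below a blue point of the same gene, and the gap is narrowest for *Irgm2* and widest, in proportion, for *Tgtp1*.

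Among the IRG regulators, *Irgm1* (ENSMUSG00000046879, GRCm39 chr11:48752795-48763164, minus strand) encodes a protein needed for survival of macrophages with intracellular bacteria and linked to autophagy. Its normalized counts were 2473.1, 3710.7, 2658.7, 2614.8 and 3015.3 in *Mrc1Cre Xpr1fl/fl* samples 1 to 5 and 1707.9, 1987.9, 1631.4 and 1683.7 in controls 1 to 4. Sample 2 was the highest by far and control 2 the highest control. The log2 fold change was 0.71 (95% interval 0.47 to 0.95, limma adjusted p = 0.000467), or 0.77 once date-adjusted (limma adjusted p = 0.042).

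*Igtp* (ENSMUSG00000078853, GRCm39 chr11:58089840-58098417, plus strand) encodes the regulator Irgm3 of the endoplasmic reticulum and lipid droplets. It stood at 1615.1, 2311.8, 1748.1, 1742.7 and 2043.0 in the *Mrc1Cre Xpr1fl/fl* samples. The 4 controls were close together at 1007.3, 1058.6, 975.0 and 1061.1, well below the lowest of the other group. The log2 fold change of *Igtp* was 0.87 (0.66 to 1.08, limma adjusted p = 5.86e-05), or 1.01 once date-adjusted (limma adjusted p = 0.00817).

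*Irgm2* (ENSMUSG00000069874, GRCm39 chr11:58090444-58113615, plus strand) encodes a regulator of the Golgi, and its gene span overlaps that of *Igtp* on the same strand. It had 2598.4, 3412.2, 2650.6, 2925.2 and 3225.8 normalized counts in *Mrc1Cre Xpr1fl/fl* samples and 2570.8, 2454.2, 2249.3 and 2437.9 in controls. The groups did not overlap, but *Mrc1Cre Xpr1fl/fl* sample 1 and control 1 were only a little apart. The log2 fold change, 0.28 (0.10 to 0.46, limma adjusted p = 0.0184), was the lowest of the members and fell short of the threshold once date-adjusted (0.41, limma adjusted p = 0.104), when samples were scaled by the 75th percentile (0.0841) or by quantiles (0.0995), and without control 3 (0.0587).

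The effectors *Iigp1* and *Tgtp1* each rose more than each of the 3 regulators in the test of their ratios given further on. Genes outside the members were not in that test. Of these, *Tgtp2* rose by 2.79, whereas *Ifi47* (1.00) and *Gm12250* (0.82), also effectors, lay near the regulator *Igtp* (0.87). *Iigp1* (ENSMUSG00000054072, chromosome 18 of GRCm39, plus strand) encodes Irga6, which is loaded onto parasite vacuoles. Its normalized counts were 511.4, 833.7, 586.1, 642.1 and 809.5 in *Mrc1Cre Xpr1fl/fl* samples and 229.9, 338.1, 231.8 and 269.0 in controls. Samples 2 and 5 were the highest, and the lowest *Mrc1Cre Xpr1fl/fl* sample was still well above the highest control. Its log2 fold change came to 1.33 (0.97 to 1.69, limma adjusted p = 0.000109), or 1.62 once date-adjusted (limma adjusted p = 0.00894).

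*Tgtp1* (ENSMUSG00000078922, GRCm39 chr11:48876154-48884999, minus strand) encodes Irgb6, an effector that arrives early at the vacuole. It was a low gene, at 40.2, 85.9, 65.9, 40.6 and 56.5 normalized counts in *Mrc1Cre Xpr1fl/fl* samples and 8.7, 15.6, 20.3 and 14.1 in controls. Its spread between samples was wide in both groups, and the groups did not overlap. On the log2 scale the rise was 1.91 (1.24 to 2.57, limma adjusted p = 0.000575), the highest of the members, or 1.93 once date-adjusted (limma adjusted p = 0.0652).

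*Tgtp1* cannot be told from its neighbor *Tgtp2* with confidence. Of its transcript 31-mers, the length salmon indexes by default, 95.4% occurred in transcripts of other genes and 90.9% in *Tgtp2*, and the 415 residues encoded by the 2 genes were 100% identical. *Tgtp2* itself stood at 460.0, 997.6, 575.8, 491.4 and 770.8 in *Mrc1Cre Xpr1fl/fl* samples and 113.2, 116.6, 61.2 and 81.5 in controls, and rose by 2.79 on the log2 scale (2.25 to 3.34, limma adjusted p = 2.14e-05). Summing both copies, an alternative chosen after seeing the data, gave 2.69. How the reads were split between the copies therefore sets the separate levels, whereas both copies and their sum were higher. The promoter stretch of *Tgtp2* holds the same GAS and ISRE pattern at the same spacing of 11 bases. For the other members, shared 31-mers made up 4.86% (*Gbp2*) to 21.5% (*Gbp9*).

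Of the GBP members with the prenylation codon, *Gbp2* (ENSMUSG00000028270, GRCm39 chr3:142326349-142343779, plus strand) encodes a protein that promotes activation of caspase-11. Its normalized counts were 2675.6, 3153.0, 2785.9, 2814.5 and 2681.2 in *Mrc1Cre Xpr1fl/fl* samples and 1873.7, 1601.9, 1569.0 and 1944.8 in controls. The *Mrc1Cre Xpr1fl/fl* samples were close together and all far above the highest control. In limma the log2 fold change was 0.69 (0.53 to 0.86, limma adjusted p = 6.19e-05), or 0.68 once date-adjusted (limma adjusted p = 0.0114).

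*Gbp5* (ENSMUSG00000105504, GRCm39 chr3:142199739-142228105, plus strand) encodes a protein linked to activation of the NLRP3 inflammasome. It stood at 856.2, 1074.9, 943.8, 961.9 and 1108.2 in *Mrc1Cre Xpr1fl/fl* samples and at 598.2, 542.4, 528.0 and 486.2 in controls. Sample 5 was the highest here, which set *Gbp5* apart from the other members, whose highest value was in sample 2. The rise was 0.87 (0.68 to 1.07, limma adjusted p = 4.23e-05), or 1.00 once date-adjusted (limma adjusted p = 0.00412).

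The members without that codon were *Gbp3*, *Gbp7* and *Gbp9*, of which *Gbp3* and *Gbp7* were 73.1% identical in encoded residues. *Gbp3* (ENSMUSG00000028268, GRCm39 chr3:142265731-142278979, plus strand) was at 2084.6, 2614.7, 2003.4, 2250.3 and 2172.9 normalized counts in *Mrc1Cre Xpr1fl/fl* samples and 1674.2, 1609.4, 1487.7 and 1600.8 in controls. The controls of *Gbp3* were tightly grouped and below the other genotype. The genotype difference on the log2 scale was 0.48 (0.31 to 0.64, limma adjusted p = 0.000541), or 0.45 once date-adjusted (limma adjusted p = 0.0737).

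*Gbp7* (ENSMUSG00000040253, GRCm39 chr3:142236044-142255910, plus strand), linked to the assembly of the phagocyte oxidase, was at 3158.7, 4128.3, 3401.4, 3628.9 and 2944.6 in *Mrc1Cre Xpr1fl/fl* samples and 2106.9, 2822.4, 2756.8 and 2840.7 in controls. Control 1 stood below the other 3 controls, and *Mrc1Cre Xpr1fl/fl* sample 5 was just above them. Its rise in limma was 0.39 (0.15 to 0.63, limma adjusted p = 0.014). It was 0.21 once date-adjusted, far from the threshold (limma adjusted p = 0.485).

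*Gbp9* (ENSMUSG00000029298, GRCm39 chr5:105224332-105287452, minus strand) is the only member in the GBP cluster of chromosome 5. It had 3196.4, 4362.5, 3143.1, 3491.8 and 3063.4 normalized counts in *Mrc1Cre Xpr1fl/fl* samples and 1654.9, 2540.4, 1985.6 and 2216.3 in controls. Its controls varied more than those of the other GBP members (SD 373.6), with control 1 again the lowest. The log2 difference was 0.72 (0.44 to 1.00, limma adjusted p = 0.00111), or 0.59 once date-adjusted (limma adjusted p = 0.128).

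Levels were compared between genes as normalized counts per kilobase of the canonical transcript. In controls the order was *Irgm1* at 840.2 ± 76.7 (SD, n = 4), *Irgm2* at 696.1 ± 38.1, *Gbp2* at 687.9 ± 74.7, *Gbp3* at 578.9 ± 28.1, *Gbp7* at 465.4 ± 62.2, *Igtp* at 448.8 ± 18.3, *Gbp9* at 371.2 ± 66.1, *Gbp5* at 169.3 ± 14.5, *Iigp1* at 87.9 ± 16.6 and *Tgtp1* at 5.1 ± 1.7. The ranges of *Irgm2* and *Gbp2* overlapped, as did those of *Gbp7* and *Igtp* and those of *Igtp* and *Gbp9*, so these neighbors were not separated. *Irgm1* was thus the highest in controls on this scale, and the effectors *Iigp1* and *Tgtp1* were the lowest of the 10.

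In *Mrc1Cre Xpr1fl/fl* samples *Irgm1* was again first, at 1387.6 ± 238.8 per kilobase (n = 5), with a range that overlapped that of *Gbp2* at 1111.0 ± 76.8. *Igtp* moved from the sixth place to the fourth, at 828.1 ± 123.5, and overlapped *Irgm2* at 849.3 ± 101.6 and *Gbp3* at 808.6 ± 86.0. The 3 genes with the lowest means were again *Gbp5* at 310.8 ± 32.2, *Iigp1* at 222.5 ± 46.2 and *Tgtp1* at 20.0 ± 6.6, but the ranges of *Gbp5* and *Iigp1*, apart in controls, overlapped here. Summed per kilobase, the GBP members were at 2272.7 ± 109.6 in controls and 3451.2 ± 341.4 in *Mrc1Cre Xpr1fl/fl* samples, a ratio of 1.52, and the IRG members at 2078.1 ± 122.8 and 3307.6 ± 505.0, a ratio of 1.59. The order depends on the length used: over all merged exons, *Irgm1* in controls was at 275.8 and in the fifth place, *Gbp2* came first, and *Igtp* was in the sixth place in both genotypes.

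**Figure D2:**
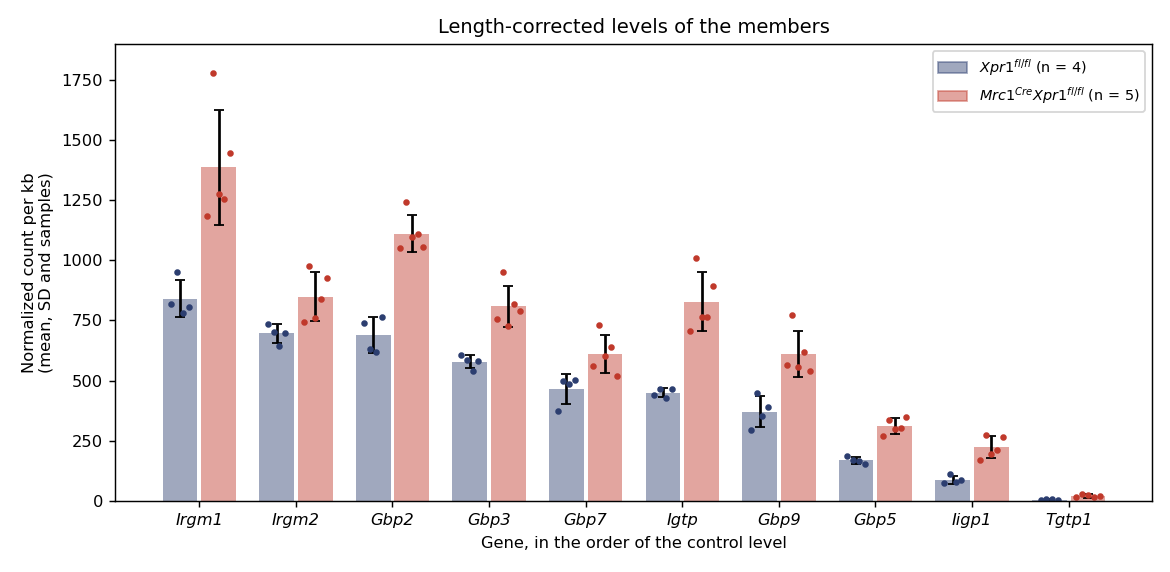
Normalized counts per kilobase of canonical transcript for the 10 members, in the order of the control level; bars are means, whiskers SD and points samples (*Xpr1fl/fl* blue, *Mrc1Cre Xpr1fl/fl* red). *Irgm1* is highest in both genotypes, *Igtp* passes *Gbp3* and *Gbp7* in the red bars, and *Tgtp1* is near the axis at 5.1 and 20.0.

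Whether the members rose by unequal amounts was tested on the log2 ratio of each of the 45 pairs of members in each sample, by a two-sided exact permutation test over every way to assign the 9 samples to groups of 5 and 4. The ratio differed between the genotypes for 27 pairs at a Benjamini-Hochberg adjusted p under 0.05 over the 45 pairs, and 19 of them had the smallest p this design allows (0.00794, adjusted 0.0188). In 26 of the 27 the ratio in *Mrc1Cre Xpr1fl/fl* sample 5 was above that in each of its 3 same-date controls. The 27 were chosen on a difference that includes these samples. For the 19 at the smallest p this outcome follows from the test, so it is no separate check on the date.

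*Tgtp1* rose more than 8 of the other 9 members, by 1.03 (over *Gbp5* and over *Igtp*) to 1.63 (over *Irgm2*) on the log2 scale, and by 0.58 over *Iigp1*, which did not pass (exact permutation, adjusted p = 0.108). The sizes of these *Tgtp1* ratios depend on how reads were split between *Tgtp1* and *Tgtp2*. They also rest on low control values of 8.7 to 20.3 normalized counts. *Iigp1* rose more than 7 members, by 0.46 to 1.05, and its difference from *Gbp2*, 0.63, missed the threshold (exact permutation, adjusted p = 0.0638). *Irgm2* rose less than 8 members, by 0.20 (under *Gbp3*) or more. The regulators themselves separated: *Igtp* rose more than *Irgm1* by 0.16 (exact permutation, adjusted p = 0.0397), and *Irgm1* more than *Irgm2* by 0.43 (exact permutation, adjusted p = 0.0188). Pairs that did not pass included *Gbp5* with *Igtp*, whose ratio was −0.93 ± 0.10 in *Mrc1Cre Xpr1fl/fl* samples and −0.93 ± 0.16 in controls, and *Gbp2*, *Gbp9* and *Irgm1* with each other, where the differences were 0.01 to 0.03.

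**Figure D3:**
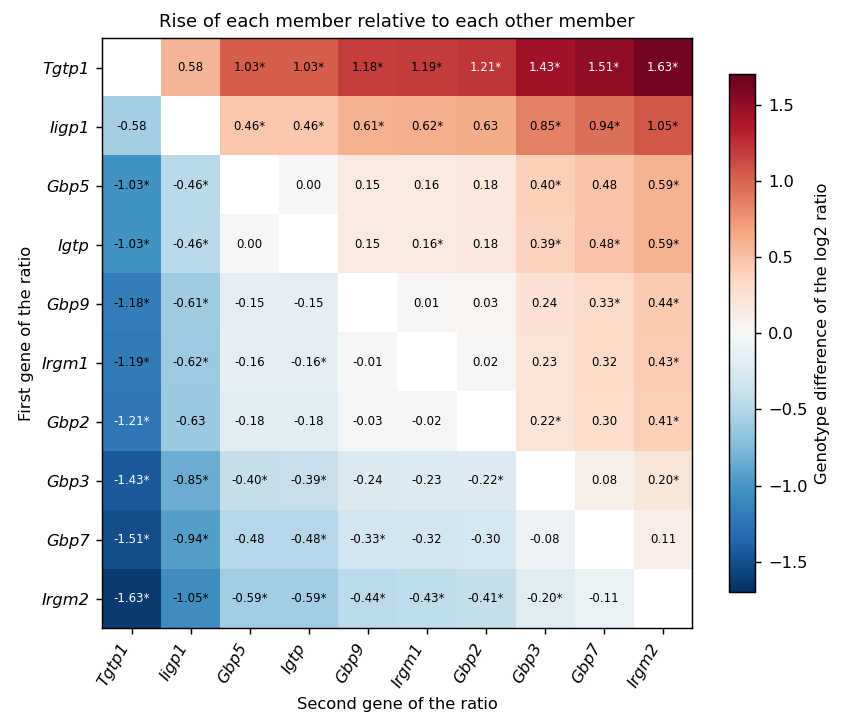
Genotype difference (*Mrc1Cre Xpr1fl/fl* minus *Xpr1fl/fl*) of the log2 ratio of the row gene to the column gene for the 45 pairs of members, with genes ordered by log2 fold change; red is a larger rise of the row gene, and a star marks an adjusted p under 0.05. Stars fill the row of *Tgtp1* except at *Iigp1*, and the row of *Irgm2* except at *Gbp7*.

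Of 24 further GBP and IRG symbols that were listed, among them both *Gm12250* and its other name *Irgb10*, 14 had a row and 13 could be tested. Past the threshold, 10 were higher and 0 lower, with a median log2 fold change of 0.70 over the 13, beside the 21.5% of all genes called higher, and 7 were higher when samples were scaled by the 75th percentile, beside 14.7%. In the date-adjusted fit 4 were higher, beside 4.24% of all genes: *Tgtp2* (3.03), *Gbp4* (1.89), *Gbp6* (1.43) and *Ifi47* (1.10). Over all 9 samples *Gbp4*, in the chromosome 5 cluster, rose by 1.66 on the log2 scale (limma adjusted p = 2.16e-05), from 364.6 ± 64.4 to 1158.4 ± 217.8 normalized counts. *Gbp6* had 1.24 (limma adjusted p = 0.000127), but 91.5% of its 31-mers were shared, mainly with the gene model *Gm43302*, as were 90.9% of those of *Gbp10*, which was too low to be tested (0.0 to 3.8 in controls, 3.8 to 61.7 in *Mrc1Cre Xpr1fl/fl* samples).

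The effector *Ifi47* (Irgd) rose by 1.00 (limma adjusted p = 0.000363) and *Gm12250*, the symbol used for Irgb10, by 0.82 (limma adjusted p = 0.000527). GENCODE annotates the *Gm12250* model measured here as a transcribed processed pseudogene, and all its 31-mers also occur in a second gene model of that name, which overlaps it. The tandem IRG genes *9930111J21Rik1* and *9930111J21Rik2* had log2 fold changes of 1.19 and 0.70 (limma adjusted p = 0.005 and 0.00328), with 87.2% and 66% of their 31-mers shared. *Iigp1c* (0.51, limma adjusted p = 0.0409), *Gbp8* (0.24, limma adjusted p = 0.0286) and *Irgq* (0.17, limma adjusted p = 0.0477) passed, with overlap between the groups, but lost the call under 12, 11 and 11 of 22 alternative settings. *Gbp2b* (0.44, limma adjusted p = 0.09), *Gm5431* (0.35, 0.0694) and *F830016B08Rik* (0.70, 0.13) did not pass. *Gbp8* was the most abundant of the family per kilobase of canonical transcript, at 2456.3 ± 109.2 in controls and 2906.4 ± 322.6 in *Mrc1Cre Xpr1fl/fl* samples, although 45.4% of its 31-mers were shared. Over merged exons it was at 872.2 in controls, still the highest. In *Mrc1Cre Xpr1fl/fl* samples it was then at 1032.0, below *9930111J21Rik2* (1156.3) and *Gbp2* (1101.9).

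Other interferon-inducible large GTPases were measured alongside. Of 5 tested, 4 were higher, beside 21.5% of all genes: *Mx1*, an antiviral GTPase, by 1.28 (limma adjusted p = 0.00124), *Gvin1* and *Gvin2*, which encode very large interferon-inducible GTPases, by 1.25 and 1.37, and *Gvin3*, which GENCODE annotates as a transcribed pseudogene, by 1.53. *Mx2* was at 328.4 ± 73.4 against 233.8 ± 61.4 and did not pass (0.50, limma adjusted p = 0.0613). After date adjustment only *Gvin2* of the 5 passed (0.95, limma adjusted p = 0.0126), beside 4.24% of all genes.

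**Figure D4:**
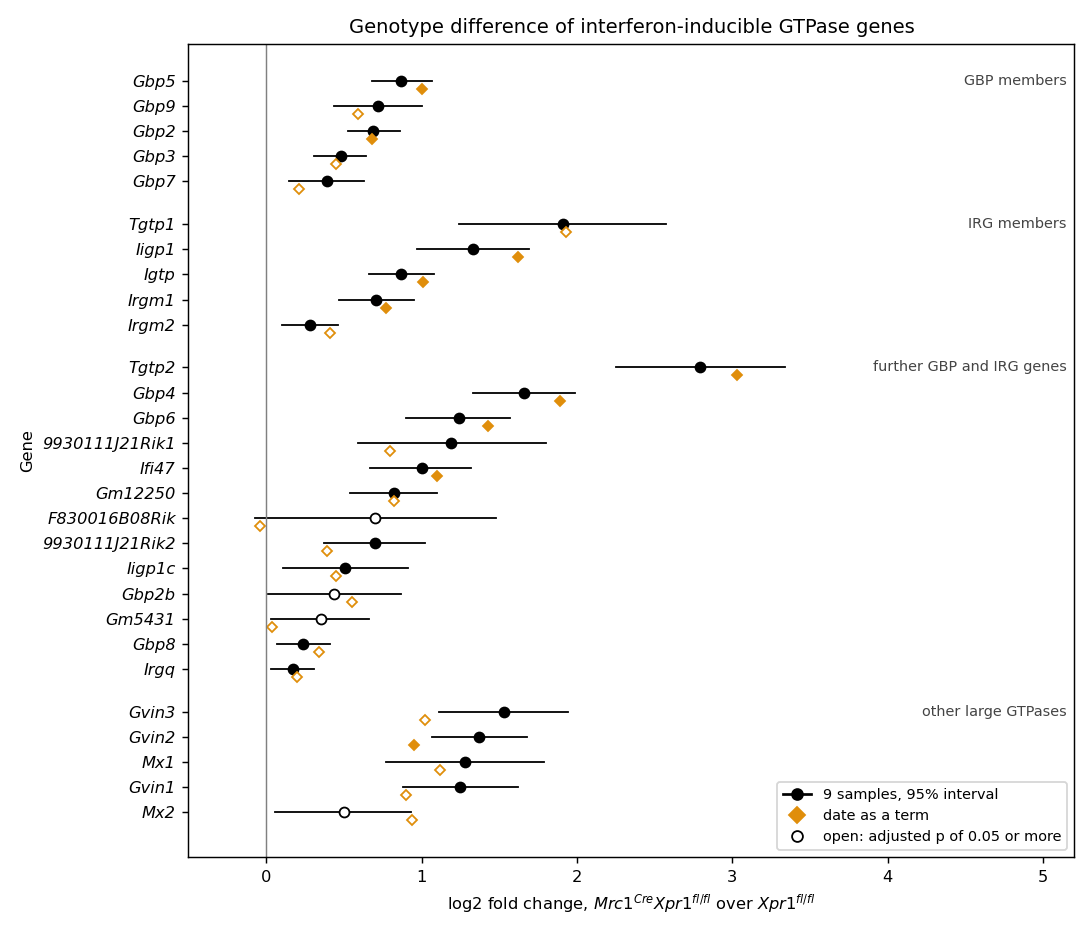
Log2 fold change (*Mrc1Cre Xpr1fl/fl* over *Xpr1fl/fl*) of the members, the further GBP and IRG genes tested and the other large GTPases; circles with 95% intervals are the fit over all 9 samples, diamonds the date-adjusted fit, and open symbols missed an adjusted p of 0.05. All circles lie above 0, from 0.17 (*Irgq*) to 2.79 (*Tgtp2*), and many diamonds are open.

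The genes upstream of the GTPases were next read by role. None of the 12 interferon genes listed, *Ifng* and *Ifnb1* among them, had a row, so the ligands were not analysed here. Of 5 receptor genes, 0 were higher and 2 lower past the limma threshold (0 and 3 at an unadjusted p under 0.05), where 21.6% of all genes were lower: *Ifnar2*, a subunit of the type I IFN receptor, fell by 0.16 (limma adjusted p = 0.0374), and *Il10rb*, shared by the type III IFN and IL-10 receptors, fell by 0.24 (limma adjusted p = 0.00959). For both, the groups overlapped. The IFN-γ receptor genes *Ifngr1* (7522.9 ± 258.6 against 8144.3 ± 492.0, limma adjusted p = 0.0953) and *Ifngr2* (3393.5 ± 256.2 against 3129.9 ± 198.6, 0.173) and the type I receptor gene *Ifnar1* (limma adjusted p = 0.301) did not pass. After date adjustment no receptor gene passed in limma, and 0 had an unadjusted p under 0.05.

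Of 9 JAK-STAT and IRF genes, 5 were higher and 0 lower in limma (5 and 0 at an unadjusted p under 0.05), beside 21.5% of all genes higher. Under 75th percentile scaling 2 of the 9 were higher, beside 14.7% of all genes. *Stat2*, needed for ISRE binding, rose by 0.80 (limma adjusted p = 0.00273), *Stat3* by 0.35, *Irf1* by 0.35, *Irf9* by 0.22 and the kinase gene *Jak1* by 0.21. The groups overlapped for *Stat2*, *Irf1* and *Jak1*, and did not for *Stat3* and *Irf9*. *Jak2* (−0.01), *Tyk2* (0.16), *Irf2* (0.07) and *Irf8* (0.10) did not pass. Among 6 feedback inhibitors, 3 were higher, beside 21.5% of all genes. *Usp18* rose by 1.37, *Socs1* by 0.88, with overlap between the groups, and the phosphatase gene *Ptpn6* by 0.38. *Socs3* (−0.14), *Ptpn2* (0.07) and *Pias1* (0.01) did not pass. Under 75th percentile scaling 2 of the 6 inhibitors were higher, beside 14.7% of all genes, and without *Mrc1Cre Xpr1fl/fl* sample 2 also 2, beside 18.7%. Of these genes, *Irf1*, *Usp18* and *Ptpn6* were the ones that passed after date adjustment, beside 4.24% of all genes higher.

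The contrast with genes that lean to type I IFN or to IFN-γ was read from lists written with earlier results of these data known, so the counts are descriptions. All 23 type I IFN-leaning genes with a row were higher (median log2 fold change 1.12, 0.56 for *Xaf1* to 2.90 for *Oas3*), beside 21.5% of all genes, and 12 were higher after date adjustment, beside 4.24%. *Irf7*, the factor that amplifies type I IFN, rose by 1.49 (limma adjusted p = 3.43e-05), *Oasl1*, an inhibitor of *Irf7* translation, by 2.73 (limma adjusted p = 7.82e-06), and *Helz2*, the most abundant of the list, by 1.12 (limma adjusted p = 5.32e-05).

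Of 18 IFN-γ-leaning genes with a row, 7 were higher, 3 lower and 8 did not pass, with a median of 0.14, where 21.5% of all genes were higher and 21.6% lower. The higher ones came to 4 under 75th percentile scaling (14.7% of all genes) and to 4 without *Mrc1Cre Xpr1fl/fl* sample 2 (18.7% of all genes), so those counts and the 3 lower genes lay near the shares of all genes, unlike the 7 higher over all samples. After date adjustment 5 of the 18 were higher, beside 4.24% of all genes, and 0 lower in limma (2 at an unadjusted p under 0.05). All 23 type I IFN-leaning genes were higher under 75th percentile scaling and without sample 2. Among the IFN-γ-leaning genes *Serpina3g*, a serine protease inhibitor gene induced in activated macrophages, showed the largest rise (2.29, limma adjusted p = 2.6e-05), and *Cd274*, which encodes PD-L1, rose by 0.91 (limma adjusted p = 4.51e-05). *Cxcl9*, a chemokine gene typical of IFN-γ, was at 74.4 ± 15.6 against 51.6 ± 16.4 and did not pass (0.54, limma adjusted p = 0.0729), although it did once date-adjusted (1.15, limma adjusted p = 0.0398), as did *Irf1*, *Cd274*, *Serpina3g* and *Icam1*. *Ciita*, the IFN-γ-inducible switch of MHC class II genes, was at 19.6 ± 11.1 against 33.2 ± 18.8 (limma adjusted p = 0.198), and *Cd74*, the invariant chain gene, at 623.6 ± 90.4 against 613.6 ± 324.7 (limma adjusted p = 0.669). Of the class II pathway genes that passed, *H2-DMa* rose by 0.23 (limma adjusted p = 0.0468), with overlap between the groups, and *H2-DMb1* fell by 0.88 (limma adjusted p = 0.00052). The class II gene *H2-Ab1* fell by 1.28 (limma adjusted p = 0.0319), with overlap between the groups, and *Il18bp*, which encodes a decoy for IL-18, was the most abundant of the list and fell by 1.81 (limma adjusted p = 0.000125). Class II genes are also made by dendritic and B cells, and markers of those cells moved in both directions: *Clec9a* (56.0 ± 36.7 against 289.0 ± 40.8), *Flt3* (59.5 ± 10.1 against 199.1 ± 58.6) and *Cd79a* (37.6 ± 8.0 against 117.6 ± 60.7) were lower, whereas *Itgax* (564.3 ± 95.8 against 166.0 ± 33.5) and *Bst2* (5045.4 ± 375.7 against 4010.5 ± 521.4) were higher. The part of those cells in the class II values was not tested. The GBP members had a median of 0.69 and the IRG members 0.87, between the medians of the 2 lists.

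**Figure D5:**
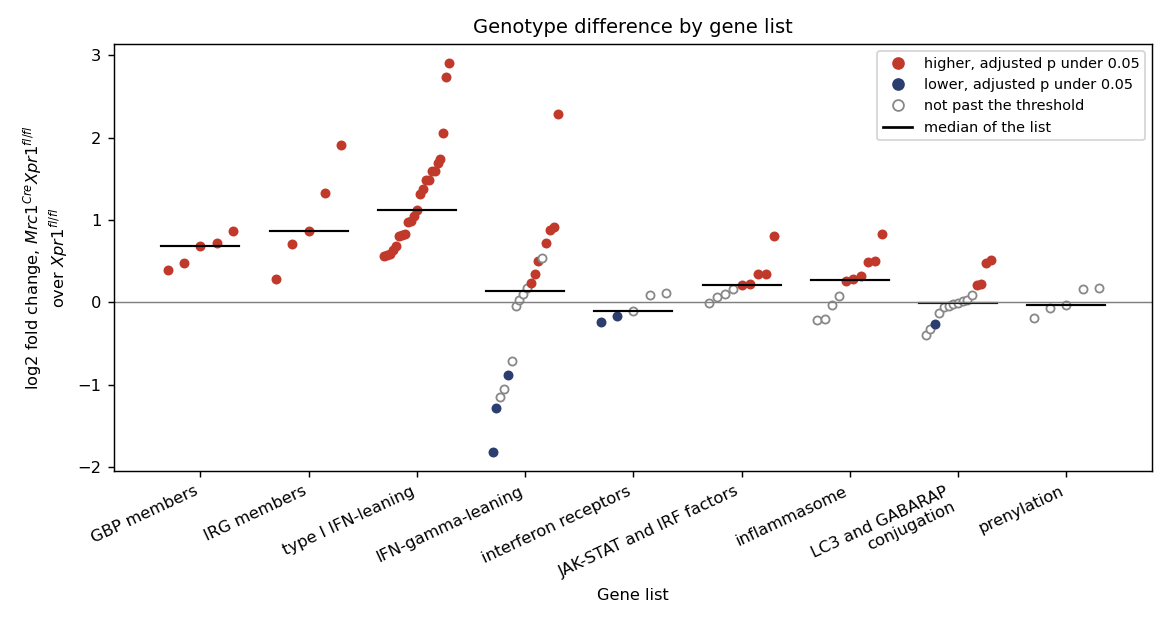
Log2 fold change (*Mrc1Cre Xpr1fl/fl* over *Xpr1fl/fl*) of each tested gene in 9 gene lists; filled points passed an adjusted p of 0.05 (red higher, blue lower), open points did not, and bars are list medians. The GBP, IRG and type I IFN-leaning lists hold red points only, while the IFN-γ-leaning list spreads from −1.81 to 2.29.

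Genes that work with GBP and IRG proteins had medians nearer to 0. The LC3 and GABARAP conjugation machinery, which directs both families to vacuoles, had 4 of 15 genes higher, 1 lower and a median of −0.01 (2 and 3 under 75th percentile scaling). The share higher was near that of all genes, 21.5% (14.7% higher and 27.3% lower under that scaling), so the counts do not set this machinery apart. *Sqstm1*, a ubiquitin-binding autophagy receptor gene and the most abundant of the list, rose by 0.52 (limma adjusted p = 0.000792), and *Gabarapl2*, which is needed for correct placement of these GTPases, fell by 0.26 (limma adjusted p = 0.0173). The groups overlapped for *Gabarapl2*. *Atg5* was at 1456.7 ± 53.6 against 1440.8 ± 64.5. *Map1lc3a*, the lowest value of the list (−0.39), did not pass, and after date adjustment 0 of the 15 genes did in limma (2 at an unadjusted p under 0.05). None of the 5 prenylation genes passed in either direction in limma (1 had an unadjusted p under 0.05), although 1 was lower under 75th percentile scaling, beside 27.3% of all genes, with values from −0.19 (*Fntb*) to 0.17 (*Icmt*), *Pggt1b* as the most abundant, and adjusted p from 0.0532 to 0.836.

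Of 10 inflammasome genes, 6 were higher and 0 lower in limma (6 and 2 at an unadjusted p under 0.05), beside 21.5% of all genes higher and 21.6% lower. Under 75th percentile scaling they were 5 and 2, beside 14.7% and 27.3%. *Casp1*, the most abundant of the list, rose by 0.49 (limma adjusted p = 4.9e-05) and *Casp4*, which encodes caspase-11, by 0.50 (limma adjusted p = 0.000622), and these were the 2 of the 10 that also passed after date adjustment, beside 4.24% of all genes higher. *Il1b* showed the largest rise (0.83, limma adjusted p = 0.00365), with overlap between the groups, and had 0.58 once date-adjusted. *Gsdmd*, the pore-forming substrate of both caspases, was at 1524.3 ± 187.8 against 1742.7 ± 141.7 and did not pass (limma adjusted p = 0.0956), nor did *Il18* (−0.21, limma adjusted p = 0.0533).

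Within a genotype the members varied together to different degrees. As the deviation of the log2 value from the mean of its genotype, averaged over the 10 members, *Mrc1Cre Xpr1fl/fl* samples 1 to 5 were at −0.20, 0.30, −0.07, −0.06 and 0.03, and controls 1 to 4 at −0.11, 0.11, −0.02 and 0.03. Sample 2 was the highest *Mrc1Cre Xpr1fl/fl* sample for 9 of the 10 members. It also had the lowest erythroid sum (80799) and the highest sum of type I IFN-leaning genes (113204), and without it all 10 members still passed. Over the 9 deviations *Irgm1* (Pearson r = 0.92) and *Igtp* (0.91) followed the mean of the other members most closely, and *Gbp2* (0.26) and *Gbp5* (0.40) least. Outside the families, the 5 genes with the closest pattern among those with at least 50 normalized counts included *Banp* (r = 0.97), *Mmab* (0.92), *Zbtb45* (0.91) and *Pdhx* (0.90). The points share libraries and rest on 9 samples, with sample 2 at the top, and the 5 were the highest among all genes tested outside the families.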

How the data were processed

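Bulk RNA-seq of 9 samples was analysed. The members and the gene lists were chosen with earlier results of these data known. The authors prepared stranded mRNA libraries from 45 ng of total RNA, checked reads with FastQC, quantified them against GRCm39 with salmon, passed the estimates through tximport and scaled them in DESeq2 (versions are not given in the sources used here). The deposited signal is a normalized count per gene, never negative, for 13708 genes. Whole reads could not be recovered, so no count test was run and absolute depth is unknown. Totals were 26942921 to 28309443 normalized counts per sample. All columns were mapped to samples (0 were not).

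Symbols came from GENCODE mouse release 39 (13698 genes). Values were tested as log2(normalized count + 1), which understates changes of low genes, with limma 3.58.1 in R 4.3.3 (lmFit, eBayes with trend, genotype as the only term) on the 13594 genes that reached 10 normalized counts in 4 or more samples. Adjusted p-values are Benjamini-Hochberg values over these genes, with a threshold of 0.05. The script was tested on simulated data. Pairs of members were compared by exact permutation tests in Python 3.11.15. Transcript 31-mers were compared across all GENCODE transcripts, and encoded residues were aligned with Biopython 1.88. The genes named were all members, the GBP, IRG and large GTPase genes with a row, *Xpr1*, *Mrc1*, the signaling genes, the most abundant gene and the largest rise and fall, where there was one, of each other list, 11 further chosen genes, and the 5 closest patterns, but 1 gene is not reported here and was left out of its list. *Adgre1*, *Flt3*, *Cd274*, *Clec4f*, *Icam1*, *Itgam*, *Lyve1*, *Spic*, *H2-DMa* and *H2-DMb1* were added after their values were seen. Alternatives were other pseudocounts (0.5 and 10), no filter or a filter at 50, 75th percentile and quantile scaling, limma without trend, with robust fitting or array weights, the replicate number as a block, the date as a term, samples of the earliest date alone, and leaving out each sample.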

Additional observations from a re-analysis of the deposited data

Results flagged for a closer look

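Of 58 groups of samples examined for the interferon-inducible GTPase genes, 3 held a sample that stood apart from the rest of its genotype, where about 1 in 20 groups (2.9 of 58) would be set apart by chance. For *Gbp7*, control 1 was the lowest at 2106.9 normalized counts, with the other controls at 2756.8 to 2840.7. For *Iigp1c*, control 2 was the highest at 603.2, with the others at 377.4 to 399.5. For *Mx1*, *Mrc1Cre Xpr1fl/fl* sample 2 was the highest at 1990.3, with the others at 901.2 to 1210.2. The causes were not tested.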

How the results depend on the processing

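Over 22 alternative settings the 10 members gave 219 fits, of which 205 kept direction and call, 14 kept direction but missed the threshold, and 0 reversed. Among the fits of single genes, those that use the date lost the most calls. With the date as a term 1194 genes were called instead of 5865, and 5 members instead of 10, and in the samples of the earliest date alone 455 genes and 4 members, with *Gbp2* then at an adjusted p of 0.0504 (limma). Of the members that lost the call with the date term, *Tgtp1* went from 1.91 to 1.93, *Irgm2* from 0.28 to 0.41 and *Gbp3* from 0.48 to 0.45. *Gbp9* went from 0.72 to 0.59 and *Gbp7* from 0.39 to 0.21. The standard errors of all of these rose, for *Tgtp1* from 0.31 to 0.57. Both date fits compare a single *Mrc1Cre Xpr1fl/fl* sample with controls. In the samples of the earliest date alone it is assumed to vary like the controls, whereas the date-term fit also uses the spread of the latest-date samples. *F830016B08Rik*, which did not pass over all samples, reversed to −0.04 in both of these fits. Leaving out each sample in turn left 9 (without control 3, which lost *Irgm2*) or 10 members. For the ratios between pairs of members, 0 to 26 of 45 passed when a sample was left out: without any of the *Mrc1Cre Xpr1fl/fl* samples the 70 splits allow no p under 0.0286, which 22 to 24 pairs reached, so that no adjusted p could pass, and without a control 21 to 26 passed. With a pseudocount of 10, 23 pairs passed. The replicate block gave 6226 genes called and 10 members. Correlations of the deviations of same-numbered samples were −0.0333, 0.147, −0.0113 and −0.0313, so the numbers do not pair the samples. Absolute depth is unknown, which limits what can be said of the low gene *Tgtp1*, and its level apart from *Tgtp2* rests on how the reads were split.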
